A study of Gallus gallus with 12 samples.

Results

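The comparison described here is that of yellow against white feather follicles at 7 weeks of age, with 3 libraries of each colour among the 12 of the series. Its genes were chosen by level and not by their difference: of 24353 genes listed, 10257 had a mean of at least 1 FPKM over the 6 libraries, and 8365 of these carry a gene symbol. FPKM counts fragments per gene, scaled to the length of the gene and to the mapped fragments of the library. The yellow group was 7Y1, 7Y3 and 7Y4 and the white group was 7W1, 7W2 and 7W3. All were F3 chickens, descended from Huiyang Bearded cocks with yellow plumage and White Leghorn hens, and their follicles were plucked from the nape. All 6 birds were CC at the recessive white locus and s/W at the Silver locus. At the Dominant white locus, 7Y1 and 7Y3 carried 1 dominant allele and 7Y4 carried 2, while 7W2 carried 1 and 7W1 and 7W3 carried 2. Each colour thus held both genotypes at 7 weeks, but not in equal number, so colour and this genotype are partly confounded. Of the 11-week birds set beside them, yellow 1Y1 and 1Y3 carried 1 dominant allele and 1Y4 carried 2. White 1W1, 1W3 and 1W4 all carried 2, so colour and this genotype are partly confounded at that age too. The gene just inside the minimum, ENSGALG00000054223, averaged 1.00169 FPKM, and the one just outside, ENSGALG00000035818, averaged 0.999928 FPKM.

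A growing feather follicle is an epidermal tube around a mesenchymal pulp. Keratinocytes at its base divide, become barb and barbule cells and cornify, while melanocytes in the barb ridges hand pigment granules to them. WNT, BMP, Hedgehog, Notch and Hippo signals pattern the epithelium, hormones set growth and moult, and blood vessels and immune cells of the pulp add their own RNA to a sample of whole follicles. Genes of the melanosome are given here only where another result stands beside them, and the account is of the other functions.

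Markers of the epidermis were abundant in both colours. Of 15 symbols chosen as markers of feather and scale keratinocytes, 14 were in the table and none was listed at 0 throughout, with a summed level of 1928 to 2222 FPKM in yellow libraries and of 1730 to 2044 FPKM in white libraries. Markers of melanocytes summed to 266, 392 and 216 FPKM in yellow libraries, against 1723, 927 and 718 FPKM in white libraries, so this sum did not overlap between the colours. PMEL led the sum, with 126, 195 and 95.3 FPKM in yellow libraries and 1066, 557.5 and 425 FPKM in white libraries. Of the 8 melanocyte markers with at least 1 FPKM, 7 had a lower mean in yellow follicles and KIT a higher one. Only 3 of the 8, PMEL, TYRP1 and MLANA, did not overlap between the colours, while TYR, SOX10 and GPR143 did. In RNA from whole follicles, fewer cells of a type and less RNA per cell cannot be told apart. The striated muscle markers summed to 32.5 to 54.9 FPKM in yellow and to 45.0 to 63.3 FPKM in white libraries, with MYL1 listed at 0 throughout. For the other marker lists the ranges of both colours overlapped as well. The first principal component of all 12 libraries held 55.6% of the variance and parted the ages, with scores of 41.2 to 61.1 at 11 weeks. At 7 weeks 7Y1 and 7Y4 scored -30.1 and -17.5, while 7Y3 scored -53.1 and the white libraries -67.2 to -50.1. Thus 7Y4 and 7Y1 lay nearest to the 11-week libraries and 7Y3 lay among the white ones, which bears on the genes below whose level also differed with age. How much of each colour difference goes with this shift was not tested. The 11-week values are given beside many of the named genes, but not beside all of them. The table gives no read counts per gene, and the read totals of the libraries are not used here, so the spread of the libraries is the measure of error.

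Few genes passed the test. On log2(FPKM + 0.1), yellow minus white, limma with Benjamini-Hochberg adjustment over 13895 genes called 3 of the 10257 genes at an adjusted p of at most 0.05 and a difference of at least 1, beside 0.0288% of all genes tested. A log2 difference on this scale understates that of a gene of low level. An unadjusted p of at most 0.05 was found for 1042 genes with higher levels in yellow follicles, or 10.2%, beside 9.01% of all genes tested. It was found for 686 genes with lower levels, or 6.69%, beside 6.04%. The 3 yellow libraries all lay above the 3 white ones for 1316 genes, or 12.8%, beside 12.1% of all genes tested, and all below for 900, or 8.77%, beside 8.04%. A gene is called separated here if its libraries did not overlap in this way and its log2 difference was at least 1 in size. Separated genes numbered 49 with higher levels in yellow follicles, or 0.478%, beside 0.943% of all genes tested, and 74 with lower levels, or 0.7215%, beside 1.14%. Both shares lie below those of all genes tested, which include less abundant genes. Of the 49 higher genes, 20 averaged under 1 FPKM in white follicles, and of the 74 lower genes, 23 averaged under 1 FPKM in yellow follicles, so these reached the minimum through 1 colour. With a pseudocount of 1 in place of 0.1, 16 higher and 45 lower genes were separated. Separation is a description and not a test, since an exact permutation test, two-sided, cannot give a p below 0.10 with 3 libraries a colour.

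**Figure D1:**
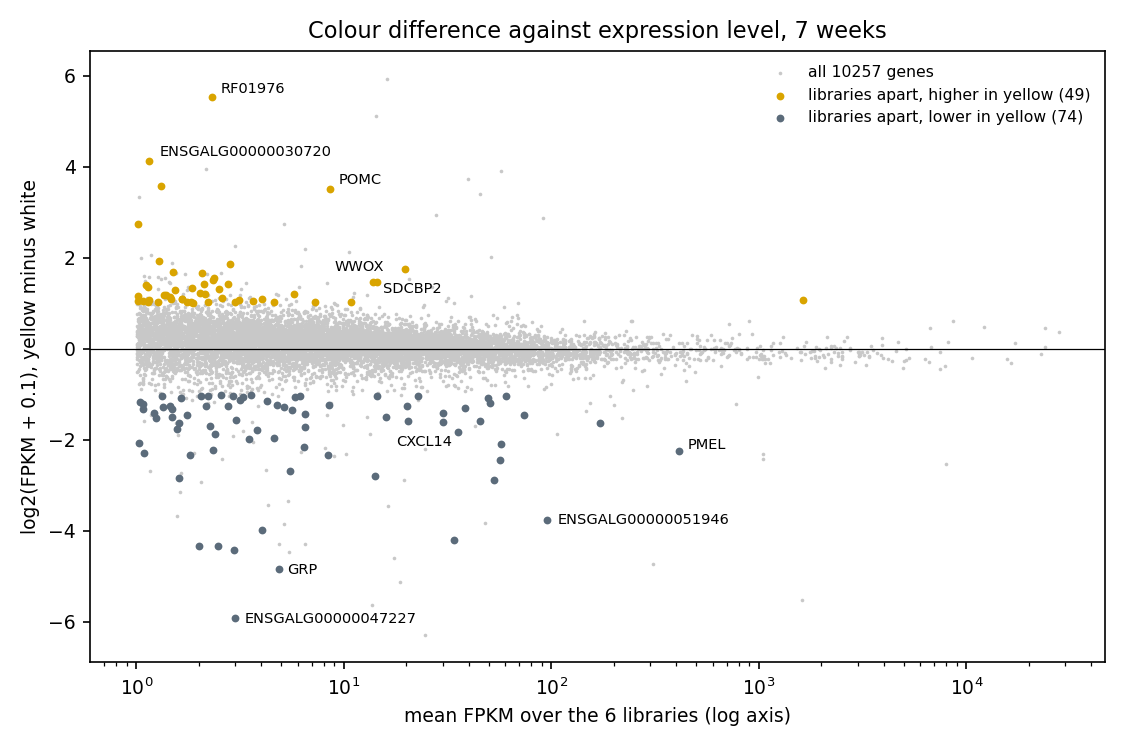
Each point is 1 of the 10257 genes, with its mean FPKM over the 6 libraries on a log axis and its log2 difference, yellow minus white, on the vertical axis. The 49 separated genes with higher levels in yellow follicles lie at low FPKM apart from ENSGALG00000049412 at the right, while the 74 with lower levels spread over low and middle FPKM up to PMEL.

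The direction of the difference went with the level of the gene. Among the 3670 genes of 1 to 5 FPKM the median log2 difference was 0.20 and 70.1% had a higher mean in yellow follicles. It was 0.11 for the 3680 genes of 5 to 20 FPKM, of which 67.85% had a higher mean in yellow follicles. For the 2220 genes of 20 to 100 FPKM it was 0.02. For the 496 genes of 100 to 500 FPKM and for the 191 genes of 500 FPKM or more it was -0.07, and 63.9% and 68.1% of them had a lower mean in yellow follicles. All 10257 genes together had a median of 0.09, which fell by 0.10 with median-of-ratios scaling of the libraries, so small differences are best read against that shift. The gene lists below are set beside all 10257 genes and were not matched by level. Of the well expressed genes, 17 at 20 to 100 FPKM and 2 at 100 to 500 FPKM were separated, all with lower levels in yellow follicles. At 500 FPKM or more 1 gene was separated, ENSGALG00000049412 on an unplaced scaffold, at 2192, 2105 and 2350 FPKM in yellow libraries and at 1243, 1044 and 892 FPKM in white libraries. It has no symbol, and its libraries overlapped at 11 weeks. The scaling matters for the split of the separated genes, which was 29 higher and 91 lower with median-of-ratios scaling and 30 higher and 99 lower with quantile normalization. The separated genes with lower levels were short, with a median span of 3637.5 bases, beside 7397 bases for those with higher levels and 11182 bases for all 10257 genes, and 45.9% of them had no symbol, beside 28.6% and 18.4%.

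Large differences with overlapping libraries were also common. A log2 difference of at least 1 was found for 129 genes in the direction of yellow follicles, of which 80 overlapped, and for 138 genes in the direction of white follicles, of which 64 overlapped. The most abundant of the overlapping genes, ENSGALG00000051870 on chromosome 33, had 38.2, 20360 and 0 FPKM in yellow libraries and 7239, 0 and 20336 FPKM in white libraries. ENSGALG00000034308 on chromosome 25 was listed at 9680 FPKM in 7W1 and at 0 in the other 5 libraries. Values listed at 0 beside such high ones are uncertain as levels, and neither gene is used further.

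All 3 called genes were of low level and had no gene name beyond an identifier. Each reached 1 FPKM through the colour in which it was high and was at or near 0 in the other, so the low group had little or no spread. RF01976, which rose in yellow follicles, lies on chromosome 2 of GRCg6a from 32581140 to 32581360, and HOXA2 begins 1.41 kb after it. It had 3.89, 3.77 and 6.21 FPKM in 7Y1, 7Y3 and 7Y4 and was listed at 0 in the 3 white libraries (adjusted p = 0.000952 from limma). HOXA2, a gene that gives cells their position along the body axis, was at 15.3, 11.7 and 12.9 FPKM in yellow and at 22.8, 13.5 and 15.2 FPKM in white libraries, which overlapped. At 11 weeks the libraries of RF01976 overlapped, since it was listed at 0 in 1Y3 and at 8.86 FPKM in 1W3.

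ENSGALG00000030720, the other gene that rose, lies on chromosome 24 from 6307788 to 6314912. Its level was 2.63, 2.27 and 1.88 FPKM in yellow libraries, against 0, 0.03804 and 0.07598 FPKM in white libraries (log2 difference 4.12, standard error 0.31, adjusted p = 0.0101 from limma). The adjusted p was between 0.0537 and 0.1001 in 7 of 18 alternatives, without 7Y1 and without 7Y4 among them, so the call is lost there. CRYAB, a small heat shock protein gene, lies 61.6 kb before it and was separated in the opposite direction, with 0.4203, 0.979 and 0.622 FPKM in yellow libraries, against 3.24, 2.28 and 1.88 FPKM in white libraries (log2 difference -1.76, standard error 0.33, adjusted p = 0.188 from limma). The annotated span of HSPB2, a related heat shock protein gene, overlaps that of CRYAB, so reads of one may have been counted for the other. HSPB2 had 5.59, 7.05 and 7.44 FPKM in yellow libraries and 4.19, 7.54 and 6.42 FPKM in white libraries, which overlapped.

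ENSGALG00000047227, which fell in yellow follicles, lies on chromosome 31 from 2361771 to 2362074. It was listed at 0 in the 3 yellow libraries, against 6.21, 6.24 and 5.41 FPKM in white libraries (adjusted p = 0.000212 from limma). With the spread taken from all 12 libraries none of the 3 called genes passed, at adjusted p of 0.184 for RF01976, 0.1001 for ENSGALG00000030720 and 0.220 for ENSGALG00000047227 from limma. At 11 weeks ENSGALG00000047227 was listed at 0 in 2 yellow libraries and at 0.569 FPKM in 1Y4, and at 112 FPKM in 1W1 and at 0 in the other 2 white libraries, so values of 0 beside a high one make its level uncertain. The next genes with at least 1 FPKM on the same side, chosen after their values were seen, were separated in the same direction. ENSGALG00000049716, 25.1 kb away, had 22.8, 3.98 and 18.1 FPKM in yellow libraries, against 115, 91.4 and 64.9 FPKM in white libraries. ENSGALG00000051946, a further 4.33 kb away, had 23.2, 4.96 and 17.5 FPKM in yellow libraries, against 231, 148 and 148 FPKM in white libraries (log2 difference -3.75, standard error 0.53, adjusted p = 0.106 from limma). Within the yellow group 7Y3 was the lowest for both, and every white library lay far above. Whether these loci share reads was not tested. METTL3, an RNA methyltransferase gene 112 kb from ENSGALG00000047227 on the other side, had 38.5, 41.7 and 47.1 FPKM in yellow and 48.7, 40.4 and 44.1 FPKM in white libraries, which overlapped. At 11 weeks ENSGALG00000051946 had 74.8, 5.77 and 40.5 FPKM in yellow libraries and 106, 75.9 and 45.01 FPKM in white libraries, with overlap.

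Separated genes stood close together in a few other places. Within 200 kb, 11 pairs of neighbouring separated genes were found, 7 of them in 1 direction. STMN4, a stathmin gene of microtubule turnover, ends 2.72 kb from POMC on chromosome 3, and both had higher levels in yellow follicles. POMC, the precursor of melanocortins and corticotropin, was at 7.07, 24.7 and 16.3 FPKM in yellow libraries, against 1.204, 1.62 and 0.765 FPKM in white libraries (log2 difference 3.52, adjusted p = 0.0956 from limma). STMN4 was at 1.37, 2.03 and 3.63 FPKM in yellow libraries, against 0.792, 1.19 and 0.958 FPKM in white libraries (log2 difference 1.09, standard error 0.36, adjusted p = 0.316 from limma), and the 7Y1 value lay just above the highest white one. STMN4 did not overlap between colours at 11 weeks, with 3.61, 2.31 and 3.897 FPKM in yellow and 2.12, 1.17 and 1.58 FPKM in white libraries. By chromosome, the separated share was highest on chromosome 16, with 4 of 46 genes or 8.70%, and on chromosome 31, with 3 of 38 genes or 7.895%. All of them had lower levels in yellow follicles, beside 0.7215% of all 10257 genes. The 3 on chromosome 31 are the neighbouring loci given above. On chromosome 16 the spans of ENSGALG00000013101 and ENSGALG00000055025 overlap by 36112 bases, so these shares rest on few places. Chromosome 33 followed with 2.77% of 217 genes in both directions together, of which 5 were lower and 1, GPD1, was higher. Beside it stand 0.7215% lower and 0.478% higher of all 10257 genes.

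The named genes nearest to the thresholds had tight libraries. WWOX, a WW domain oxidoreductase, was at 22.1, 18.6 and 22.99 FPKM in yellow libraries, against 7.28, 9.22 and 6.56 FPKM in white libraries (log2 difference 1.46, standard error 0.15, adjusted p = 0.06201 from limma). The lowest yellow library, 7Y3, had 18.6 FPKM and the highest white library, 7W2, had 9.22 FPKM. SDCBP2, which encodes the adaptor syntenin-2, was at 25.1, 16.6 and 19.5 FPKM in yellow libraries, against 6.15, 7.96 and 7.64 FPKM in white libraries (log2 difference 1.47, standard error 0.18, adjusted p = 0.0783 from limma). For both genes the groups were far apart, and neither passed. WWOX passed in 4 of the 18 alternatives, at an adjusted p of 0.0328 with median-of-ratios scaling and of 0.0216 without 7W2, with a range of 0.0216 to 0.272 over all of them. At 11 weeks WWOX was at 33.4, 33.4 and 22.5 FPKM in yellow and 22.3, 18.3 and 24.3 FPKM in white libraries, so the white libraries of that age held about as much as the yellow ones of 7 weeks.

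Among the genes with lower levels, LXN, AGBL1 and ANKRD39 were nearest. LXN encodes latexin, an inhibitor of carboxypeptidases, and was at 1.34, 1.38 and 1.76 FPKM in yellow libraries, against 4.42, 4.84 and 4.48 FPKM in white libraries (log2 difference -1.56, standard error 0.17, adjusted p = 0.06201 from limma). AGBL1 encodes a cytosolic carboxypeptidase that removes glutamate from tubulin tails, and was at 1.78, 1.22 and 2.11 FPKM in yellow libraries, against 5.85, 6.02 and 5.98 FPKM in white libraries (log2 difference -1.78, standard error 0.21, adjusted p = 0.0783 from limma). The 3 white values of each gene lay close together, and no library of one colour came near the other. LXN and AGBL1 passed with median-of-ratios scaling and with quantile normalization, with ranges of 0.0155 to 0.287 and 0.00719 to 0.287 in adjusted p over the 18 alternatives. AGBL1 was separated at 11 weeks too, with 2.03, 3.34 and 1.38 FPKM in yellow and 9.65, 8.23 and 7.902 FPKM in white libraries. ANKRD39, an ankyrin repeat gene, was at 21.7, 21.3 and 22.3 FPKM in yellow libraries, against 54.03, 43.97 and 65.6 FPKM in white libraries (log2 difference -1.30, standard error 0.14, adjusted p = 0.06201 from limma). Values of ANKRD39 at 11 weeks were 18.8, 11.7 and 18.6 FPKM in yellow and 10.5, 21.4 and 8.69 FPKM in white libraries, which overlapped and lay near or below the 7-week yellow values.

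Other separated genes of lowest p with higher levels in yellow follicles had varied roles, and none passed. TNFRSF10B, a receptor of the death ligand TRAIL in mammals, was at 2.702, 3.22 and 3.16 FPKM in yellow libraries, against 1.18, 1.37 and 1.2001 FPKM in white libraries (log2 difference 1.21, adjusted p = 0.113 from limma). CABLES1, a partner of cyclin-dependent kinases, was at 2.71, 2.601 and 2.75 FPKM in yellow libraries, against 0.873, 1.26 and 0.931 FPKM in white libraries (log2 difference 1.33, adjusted p = 0.129 from limma). Both were even within each colour and did not overlap. LYPD6, a LY6 domain protein known in zebrafish as a promoter of WNT signalling, was at 5.99, 8.91 and 9.26 FPKM in yellow libraries, against 3.01, 3.62 and 3.51 FPKM in white libraries (log2 difference 1.21, adjusted p = 0.144 from limma). KCNC4, a voltage-gated potassium channel, was at 3.004, 3.14 and 3.09 FPKM in yellow libraries, against 0.713, 1.39 and 1.31 FPKM in white libraries (log2 difference 1.41, adjusted p = 0.179 from limma). KCNC4 did not overlap at 11 weeks either, at 2.62, 4.03 and 2.82 FPKM in yellow and 2.11, 1.42 and 1.696 FPKM in white libraries, whereas TNFRSF10B, CABLES1 and LYPD6 did. CABLES1 was then at 6.13, 7.65 and 3.99 FPKM in yellow and 4.97, 4.13 and 4.96 FPKM in white libraries. All of these lay above every 7-week value of CABLES1.

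PRDM8, a transcriptional repressor of the PR domain family, was at 1.21, 2.93 and 3.05 FPKM in yellow libraries, against 0.626, 0.6002 and 0.6297 FPKM in white libraries (log2 difference 1.69, adjusted p = 0.217 from limma). The white libraries were nearly equal and 7Y1 was the lowest of the yellow ones. At 11 weeks its libraries overlapped.

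**Figure D2:**
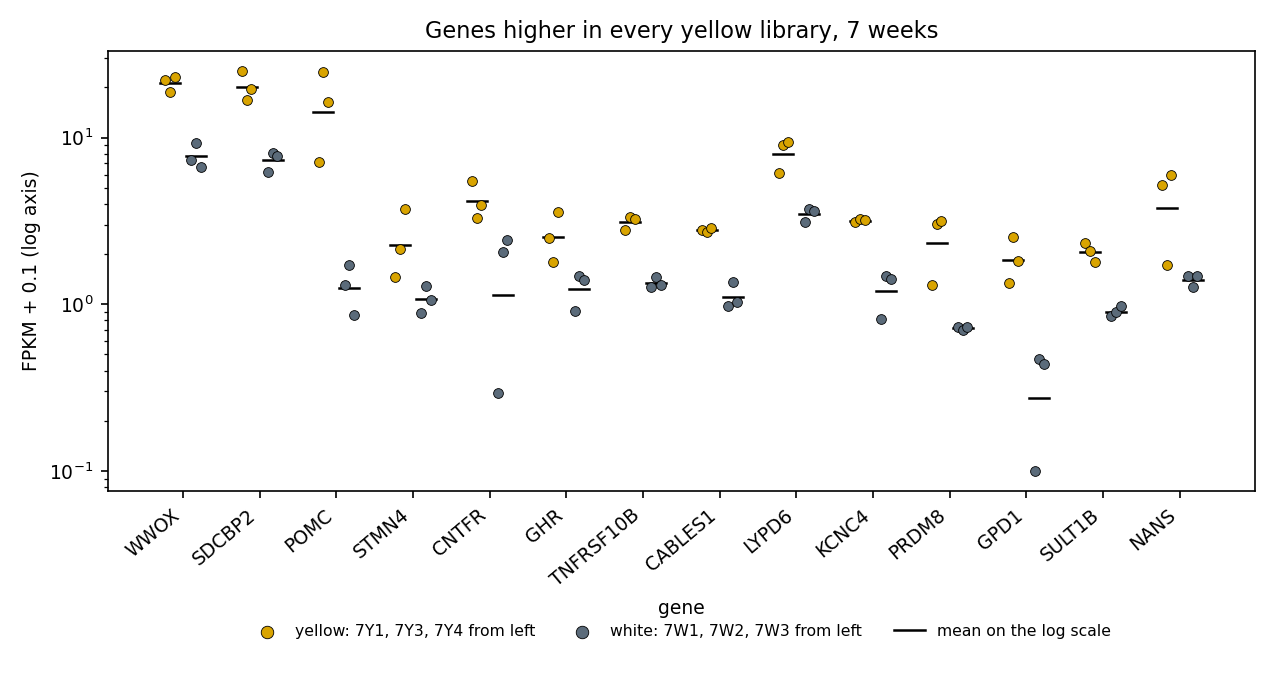
FPKM + 0.1 on a log axis for 14 genes, with yellow libraries in gold and white libraries in grey, and bars at the mean on the log scale. In every gene shown the lowest yellow point lies above the highest white point, widely for WWOX and narrowly for STMN4 and GHR.

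Receptors of hormones and cytokines, chosen after their values were seen, included genes with and without a matching difference at 11 weeks. CNTFR, which binds ciliary neurotrophic factor, was at 5.42, 3.18 and 3.85 FPKM in yellow libraries, against 0.193, 1.97 and 2.31 FPKM in white libraries (log2 difference 1.87, standard error 0.76, adjusted p = 0.329 from limma). The library 7W1 was far below the other white ones and widened the spread. At 11 weeks CNTFR was at 6.24, 7.19 and 5.29 FPKM in yellow and 1.55, 1.63 and 2.77 FPKM in white libraries, again without overlap. GHR, the growth hormone receptor, was at 2.399, 1.69 and 3.47 FPKM in yellow libraries, against 0.812, 1.37 and 1.298 FPKM in white libraries (log2 difference 1.03, standard error 0.32, adjusted p = 0.311 from limma). Its 11-week values of 8.91, 14.5 and 10.1 FPKM in yellow and 9.22, 9.85 and 9.37 FPKM in white libraries overlapped and were all higher than any at 7 weeks.

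DKK1 and WIF1, secreted inhibitors of WNT signalling chosen after their values were seen, had lower levels in yellow follicles. DKK1, which blocks the LRP coreceptors of WNT, was at 3.58, 2.03 and 3.18 FPKM in yellow libraries, against 5.34, 6.44 and 10.3 FPKM in white libraries (log2 difference -1.28, standard error 0.30, adjusted p = 0.232 from limma). WIF1, which binds WNT proteins directly, was at 1.45, 2.27 and 2.12 FPKM in yellow libraries, against 7.55, 2.304 and 3.89 FPKM in white libraries (log2 difference -1.05, standard error 0.41, adjusted p = 0.325 from limma). Both genes were separated, but for WIF1 the highest yellow value, 2.27 in 7Y3, and the lowest white one, 2.30 in 7W2, were nearly equal. CTHRC1, a secreted glycoprotein of collagenous matrix named by the rule on p, was at 1.87, 1.89 and 2.07 FPKM in yellow libraries, against 5.21, 3.69 and 4.201 FPKM in white libraries (log2 difference -1.12, standard error 0.18, adjusted p = 0.143 from limma). All 3 overlapped at 11 weeks, where DKK1 was at 1.94, 0.895 and 2.35 FPKM in yellow and 1.43, 2.53 and 1.24 FPKM in white libraries.

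AVP and GRP, peptide precursor genes of low level, were separated with lower levels in yellow follicles, opposite to POMC, and neither passed. AVP, the vasopressin-family precursor, was at 0.457, 1.41 and 1.23 FPKM in yellow libraries, against 3.39, 3.26 and 4.61 FPKM in white libraries (log2 difference -1.87, standard error 0.39, adjusted p = 0.212 from limma), and its groups were well apart. GRP, the gastrin-releasing peptide precursor, was at 0.443, 0 and 0 FPKM in yellow libraries, against 9.398, 18.6 and 0.616 FPKM in white libraries (adjusted p = 0.276 from limma). The white values of GRP spread widely, and 7W3 lay close to the yellow library 7Y1. At 11 weeks AVP was at 1.203, 0.526 and 1.48 FPKM in yellow and 2.89, 1.15 and 4.01 FPKM in white libraries, which overlapped. Both were chosen after their values were seen.

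Of the 8 genes of the chemokine and cytokine list, 5 had a higher mean in yellow follicles, and CXCL14 was the 1 gene separated, with lower levels. CXCL14, a chemokine made by epithelium, was at 14.2, 13.04 and 15.3 FPKM in yellow libraries, against 96.98, 32.4 and 41.3 FPKM in white libraries (log2 difference -1.83, standard error 0.37, adjusted p = 0.209 from limma). The yellow libraries were even, and 7W1 stood above the other white ones. IL17C, a cytokine of epithelial cells, was at 2.47, 1.14 and 1.38 FPKM in yellow libraries, against 5.17, 2.53 and 2.68 FPKM in white libraries (log2 difference -1.01, adjusted p = 0.325 from limma). IL17REL, a relative of the IL17 receptor chains, was at 1.77, 2.26 and 3.803 FPKM in yellow libraries, against 8.47, 5.33 and 3.97 FPKM in white libraries (log2 difference -1.15, adjusted p = 0.311 from limma). In both, one yellow library came close to the lowest white one, and both were chosen after their values were seen. LY86, a surface protein of B cells and macrophages, was at 7.499, 7.62 and 10.6 FPKM in yellow libraries, against 14.4, 17.6 and 15.9 FPKM in white libraries, without overlap but with a log2 difference of -0.90 (adjusted p = 0.171 from limma). Of the 10 macrophage and granulocyte markers with at least 1 FPKM, 8 had a higher mean in yellow follicles, beside 63.3% of all genes. Their median log2 difference was 0.20, and was -0.13 without 7Y4. LY86 was the 1 marker of these that was lower without overlap. At 11 weeks the libraries of CXCL14, IL17C, IL17REL and LY86 overlapped.

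The interferon response list had the highest median of the 21 function lists, 0.50 over its 20 genes, all 20 with a higher mean in yellow follicles. None of the 20 reached an unadjusted p of 0.05 and 1, TRIM25, was separated. The summed level was 98.1 FPKM in 7Y1, 71.0 in 7Y3 and 457 in 7Y4, against 182 in 7W1, 79.4 in 7W2 and 72.6 in 7W3. Without 7Y4 the median of the list was -0.18, and with the replicate number as a block it was -0.21, so the sign rests on that library. It was 0.91 without 7Y3 and 0.23 without 7W3. IFIT5, an antiviral effector, was at 2.81, 0.944 and 29.6 FPKM in yellow libraries and 8.05, 1.94 and 0.816 FPKM in white libraries, and OASL, a relative of the RNA sensors of the OAS family, at 14.4, 3.81 and 156 FPKM in yellow and 56.6, 9.25 and 3.73 FPKM in white libraries. In both genes 7Y4 was highest, 7W1 next and the other libraries low. TRIM25, a ubiquitin ligase of antiviral signalling, was at 0.936, 0.496 and 3.98 FPKM in yellow libraries, against 0.369, 0.446 and 0.434 FPKM in white libraries, with its lowest yellow value close to the white ones. Macrophage and granulocyte markers summed to 111, 100 and 185 FPKM in yellow and to 144, 102 and 101 FPKM in white libraries, and lymphocyte markers to 56.0, 39.1 and 95.6 FPKM in yellow and to 86.9, 45.3 and 40.8 FPKM in white libraries. These sums were also highest in 7Y4, with 7W1 next. Sums of dermal fibroblast, endothelium and adipocyte markers were highest in 7Y4 as well, and those of the remaining marker lists in other libraries. The part of all these cells in the interferon values was not tested.

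**Figure D3:**
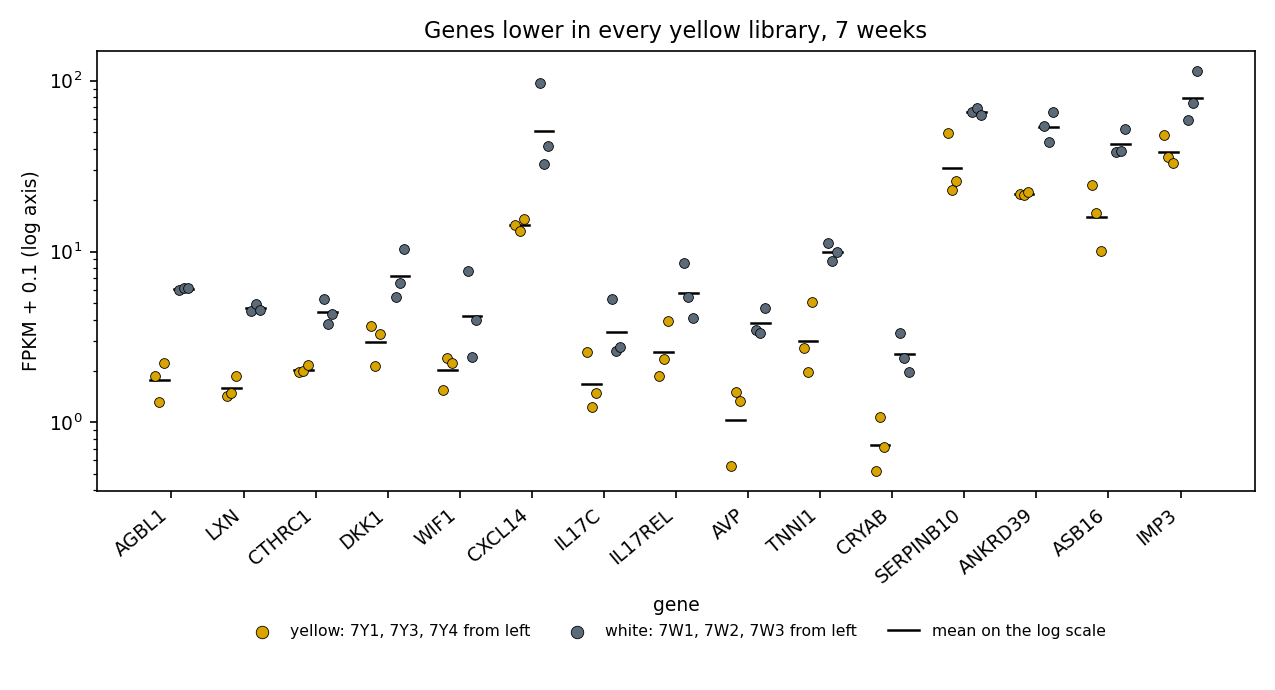
FPKM + 0.1 on a log axis for 15 genes, with yellow libraries in gold and white libraries in grey, and bars at the mean on the log scale. In every gene shown the highest yellow point lies below the lowest white point, with the tightest groups in ANKRD39, LXN and CTHRC1.

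No gene of the circadian clock passed the test. Of the 16 with at least 1 FPKM, 13 had a higher mean in yellow follicles, beside 63.3% of all 10257 genes. The median log2 difference was 0.33, beside 0.09 over all genes, and was 0.21 without 7Y4. An unadjusted p of at most 0.05 was found for 5, all higher in yellow follicles, beside 10.2% of all genes. NR1D2, a nuclear receptor that represses clock genes, was at 6.76, 4.65 and 5.44 FPKM in yellow libraries, against 2.96, 4.42 and 2.69 FPKM in white libraries (log2 difference 0.74, standard error 0.23, adjusted p = 0.311 from limma). NFIL3, a repressor of the same circuit, was at 2.63, 2.37 and 2.58 FPKM in yellow libraries, against 1.37, 1.603 and 1.601 FPKM in white libraries (log2 difference 0.70, standard error 0.17, adjusted p = 0.264 from limma). ARNTL2, a transcriptional activator of the clock, was at 13.3, 12.1 and 13.3 FPKM in yellow libraries, against 7.28, 11.7 and 6.67 FPKM in white libraries (log2 difference 0.63, adjusted p = 0.318 from limma). In these 3 genes the groups did not overlap, narrowly for ARNTL2 and NR1D2, where 7W2 was the highest white library. CSNK1E, a kinase that acts on the stability of clock proteins, was also among the 5. The hour of sampling is not given in the sources used here. At 11 weeks NR1D2 was at 11.2, 13.4 and 6.76 FPKM in yellow and 10.6, 7.74 and 11.5 FPKM in white libraries, which overlapped. The summed list was 174, 146 and 178 FPKM in yellow libraries and 127, 142 and 133.5 FPKM in white libraries of 7 weeks. It was 264 to 328 FPKM in the libraries of 11 weeks, so this list also differed with age. At 7 weeks 7Y1 and 7Y4 were highest and 7Y3 lay close to 7W2.

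Hippo signalling genes, which control tissue growth through the coactivator YAP1, had 18 of 20 genes with a higher mean in yellow follicles, beside 63.3% of all genes, and none passed. Their median was 0.31, beside 0.09 over all genes, and was 0.17 with quantile normalization. At an unadjusted p of at most 0.05 there were 5 higher and 1 lower, beside 10.2% and 6.69% of all genes. WWOX, given above, is on this list and was its 1 separated gene. Both WWOX and YAP1 are among the genes that the study reports as differing between the colours at this age. The list was drawn up with that result known, so its counts and median cannot show independently whether the pathway differed. YAP1 itself was at 7.65, 2.77 and 9.86 FPKM in yellow libraries, against 1.87, 3.96 and 2.2002 FPKM in white libraries (log2 difference 1.196, standard error 0.49, adjusted p = 0.329 from limma). Its groups overlapped, since 7Y3 lay below 7W2. TEAD3, a DNA-binding partner of YAP1, was at 7.696, 5.75 and 8.25 FPKM in yellow libraries, against 3.095, 5.61 and 5.19 FPKM in white libraries (log2 difference 0.66, adjusted p = 0.325 from limma). CYR61, a textbook target of YAP1, went the other way, at 6.67, 5.9996 and 8.68 FPKM in yellow libraries, against 14.1, 9.89 and 8.93 FPKM in white libraries (log2 difference -0.61, adjusted p = 0.319 from limma). At 11 weeks YAP1 was at 23.7, 43.4 and 26.2 FPKM in yellow and 26.9, 24.8 and 30.1 FPKM in white libraries, all above every 7-week value. The summed list was 200, 163 and 230 FPKM in yellow libraries and 160, 167 and 153 FPKM in white libraries, so 7Y3 lay within the white range.

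**Figure D4:**
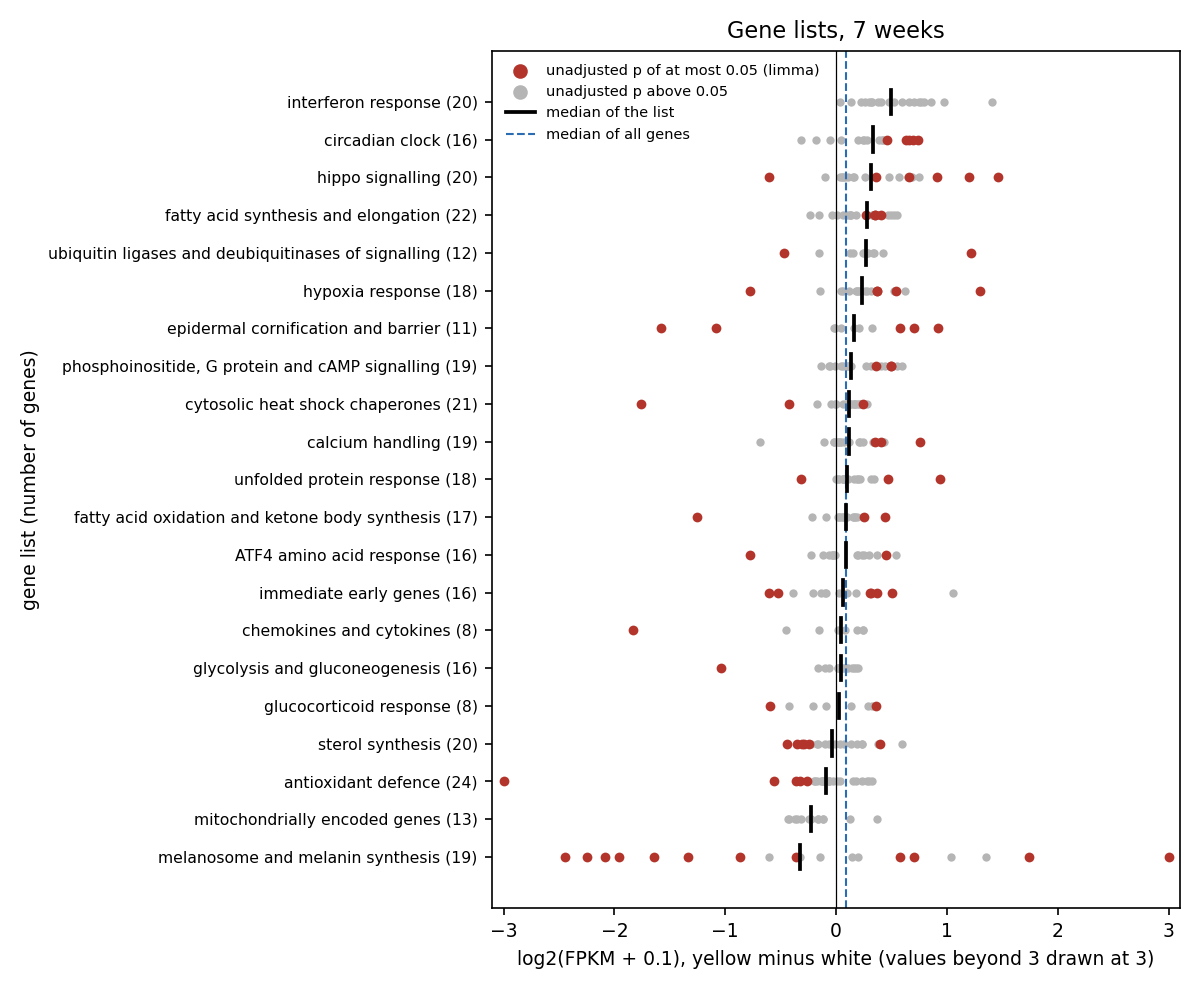
Each point is a gene of one of 21 function lists with its log2 difference, yellow minus white, red where the unadjusted p from limma was at most 0.05, and differences beyond 3 in size drawn at 3. Black bars mark list medians, from 0.50 for the interferon response to -0.32 for the melanosome list, and the dashed line marks the median of all genes, 0.09.

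Lipid synthesis was described by a list for each of 2 pathways. Fatty acid synthesis and elongation had 22 genes, of which 19 had a higher mean in yellow follicles, beside 63.3% of all genes, with 4 higher and 0 lower at an unadjusted p of at most 0.05, beside 10.2% and 6.69%. The median was 0.28, and was 0.18 without 7Y4 and 0.17 with median-of-ratios scaling. ELOVL5, an elongase of polyunsaturated fatty acids, was at 10.1, 8.91 and 11.5 FPKM in yellow libraries, against 7.47, 8.39 and 7.91 FPKM in white libraries, and ME1, a source of NADPH for the pathway, at 16.6, 15.99 and 20.1 FPKM in yellow, against 11.5, 14.9 and 14.9 FPKM in white libraries. Neither overlapped, and the log2 differences were 0.35 and 0.35 (adjusted p = 0.325 and 0.329 from limma). FASN, the synthase at the centre of the pathway, was at 16.1, 14.7 and 17.2 FPKM in yellow and 14.4, 14.8 and 14.4 FPKM in white libraries, which overlapped. Sterol synthesis had 20 genes with a median of -0.04, which was 0.05 without 7W1 and 0.01 without 7Y3. Of these 20 genes, 1 was higher and 5 lower at an unadjusted p of at most 0.05, beside 10.2% and 6.69% of all genes. FDPS, the farnesyl diphosphate synthase, was at 113, 106 and 108 FPKM in yellow libraries, against 164, 153 and 131 FPKM in white libraries (log2 difference -0.45, standard error 0.10, adjusted p = 0.223 from limma). CYP51A1, the lanosterol demethylase, was at 55.8, 54.8 and 55.9 FPKM in yellow libraries, against 71.6, 63.7 and 62.4 FPKM in white libraries (log2 difference -0.25, adjusted p = 0.316 from limma). Both were without overlap. FDPS did not overlap at 11 weeks either, at 70.3, 68.5 and 71.1 FPKM in yellow and 117, 95.7 and 89.5 FPKM in white libraries. The difference between the lists was not tested.

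Other metabolic enzymes were separated singly. GPD1, the cytosolic glycerol-3-phosphate dehydrogenase, was at 1.24, 2.44 and 1.71 FPKM in yellow libraries, against 0, 0.367 and 0.3405 FPKM in white libraries (log2 difference 2.74, standard error 0.61, adjusted p = 0.224 from limma). SULT1B, a sulfotransferase of phenols and thyroid hormones, was at 2.25, 1.97 and 1.696 FPKM in yellow libraries, against 0.746, 0.802 and 0.86997 FPKM in white libraries (log2 difference 1.19, standard error 0.20, adjusted p = 0.168 from limma). Neither overlapped, and GPD1 reached the mean of 1 FPKM through yellow follicles. At 11 weeks GPD1 overlapped, and its white libraries of that age lay within the range of the yellow ones of 7 weeks. SULT1B did not overlap at 11 weeks, but only narrowly. It was then at 1.42, 2.01 and 3.24 FPKM in yellow and 1.36, 0.856 and 1.004 FPKM in white libraries. HPGDS, the haematopoietic prostaglandin D synthase, was at 17.4, 34.1 and 14.3 FPKM in yellow libraries, against 128, 96.5 and 52.7 FPKM in white libraries (log2 difference -2.08, adjusted p = 0.1903 from limma). FBP1, of gluconeogenesis, was at 2.93, 2.57 and 3.05 FPKM in yellow libraries, against 9.46, 2.75 and 8.05 FPKM in white libraries, and overlapped because 7W2 was low. Glycolysis and gluconeogenesis as a list had a median of 0.05 over 16 genes. Of these, 0 were higher and 1 lower at an unadjusted p of at most 0.05, beside 10.2% and 6.69% of all genes.

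Sugar chain and junction genes, chosen after their values were seen, were higher mainly in 7Y1 and 7Y4. NANS, the sialic acid synthase, was at 5.11, 1.62 and 5.85 FPKM in yellow libraries, against 1.39, 1.17 and 1.38 FPKM in white libraries (log2 difference 1.42, standard error 0.45, adjusted p = 0.315 from limma). Its 11-week values, 8.26, 5.39 and 11.02 FPKM in yellow and 3.901, 4.05 and 3.45 FPKM in white libraries, did not overlap either. EXT2, a heparan sulfate polymerase, was at 2.38, 1.49 and 3.39 FPKM in yellow libraries, against 0.877, 1.27 and 1.13 FPKM in white libraries (log2 difference 1.02, adjusted p = 0.311 from limma). TJP1, the tight junction scaffold, was at 5.21, 2.905 and 6.87 FPKM in yellow libraries, against 1.52, 2.82 and 2.53 FPKM in white libraries (log2 difference 1.05, adjusted p = 0.318 from limma). In all 3 genes 7Y3 lay just above the white libraries. EXT2 was at 6.35, 11.5 and 7.82 FPKM in yellow and 6.299, 6.39 and 7.28 FPKM in white libraries of 11 weeks, and TJP1 at 12.9, 32.7 and 13.5 FPKM in yellow and 13.2, 13.2 and 13.6 FPKM in white libraries, with overlap and above every 7-week value. Over all 49 separated genes with higher levels, 7Y3 was the yellow library nearest to the white ones for 28, 7Y1 for 13 and 7Y4 for 8. Without 7Y3 the separated genes numbered 311 higher and 105 lower. Leaving out any library loosens the rule, since fewer libraries must lie apart.

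No gene of cornification or of cell contacts passed the test. TGM3, a transglutaminase that cross-links cornified cells, was at 28.5, 31.02 and 34.2 FPKM in yellow libraries, against 12.8, 14.6 and 23.9 FPKM in white libraries (log2 difference 0.92, standard error 0.22, adjusted p = 0.262 from limma), without overlap. PKP1, a plakophilin of desmosomes, was at 42.9, 19.3 and 51.2 FPKM in yellow libraries, against 7.12, 23.4 and 14.9 FPKM in white libraries (log2 difference 1.36, standard error 0.49, adjusted p = 0.325 from limma), and 7Y3 lay below 7W2. ABCA12, the lipid transporter of the epidermal barrier, was at 10.8, 8.11 and 11.2 FPKM in yellow libraries, against 4.54, 7.67 and 6.31 FPKM in white libraries (log2 difference 0.71, adjusted p = 0.311 from limma), with a narrow gap between 7Y3 and 7W2. The list of 11 genes of cornification and barrier had a median of 0.16, beside 0.09 over all genes, with 3 higher and 2 lower at an unadjusted p of at most 0.05, beside 10.2% and 6.69% of all genes. The 2 lower ones were SERPINB10, a serpin, at 49.7, 22.9 and 25.9 FPKM in yellow libraries, against 65.5, 68.97 and 62.8 FPKM in white libraries, and PADI1, a peptidylarginine deiminase, at 0.436, 0.349 and 0.422 FPKM in yellow libraries, against 2.94, 0.425 and 1.98 FPKM in white libraries. SERPINB10 was separated (log2 difference -1.09, adjusted p = 0.264 from limma), while PADI1 overlapped because 7W2 was as low as the yellow libraries. SPINK6, an inhibitor of epidermal kallikreins chosen after its values were seen, was at 3.28, 2.098 and 2.87 FPKM in yellow libraries, against 8.86, 4.91 and 6.42 FPKM in white libraries (log2 difference -1.24, adjusted p = 0.212 from limma).

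Short genes of 20 FPKM or more formed most of the well expressed separated set. ASB16, a SOCS box protein, was at 24.5, 16.7 and 9.92 FPKM in yellow libraries, against 38.4, 38.9 and 52.2 FPKM in white libraries (log2 difference -1.42, standard error 0.31, adjusted p = 0.223 from limma). IMP3, of the nucleolar complex that processes ribosomal RNA, was at 48.1, 35.6 and 33.03 FPKM in yellow libraries, against 58.5, 73.7 and 114 FPKM in white libraries (log2 difference -1.04, adjusted p = 0.262 from limma). BORCS6, of a complex that places lysosomes, was at 24.6, 12.01 and 10.5 FPKM in yellow libraries, against 27.6, 30.9 and 31.3 FPKM in white libraries (log2 difference -1.03, adjusted p = 0.298 from limma). In these 3 genes 7Y1 lay nearest to the white libraries and 7Y4 farthest. At 11 weeks ASB16 was at 14.96, 11.3 and 11.3 FPKM in yellow and 5.22, 15.9 and 8.73 FPKM in white libraries, and IMP3 at 38.2, 30.7 and 29.1 FPKM in yellow and 13.1, 31.7 and 22.1 FPKM in white libraries, with overlap in both. CAMK2N1, an inhibitor of the kinase CaMKII, was at 10.3, 22.96 and 35.8 FPKM in yellow libraries, against 107, 38.99 and 56.02 FPKM in white libraries (log2 difference -1.59, standard error 0.50, adjusted p = 0.315 from limma), with the highest yellow value just under the lowest white one.

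**Figure D5:**
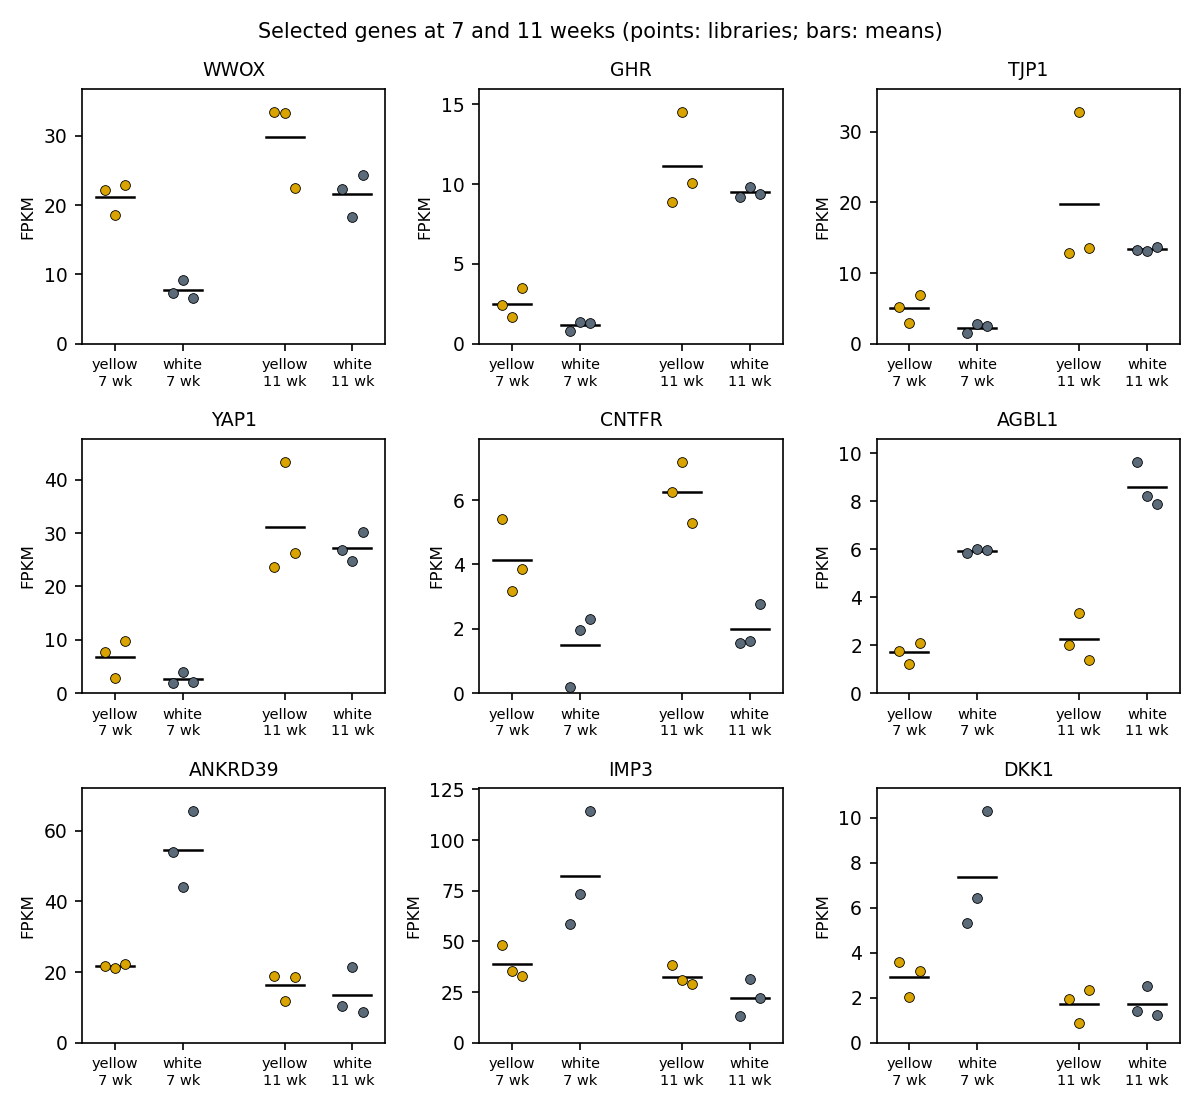
FPKM of 9 genes in yellow and white libraries of 7 and 11 weeks, each point a library and each bar a mean, on linear axes from 0. CNTFR and AGBL1 are apart between the colours at both ages, while for GHR, TJP1 and YAP1 all 11-week libraries lie above all 7-week ones.

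No gene of the muscle, chaperone and antioxidant lists passed the test. TNNI1, a troponin of slow skeletal muscle, was at 2.64, 1.88 and 4.96 FPKM in yellow libraries, against 11.1, 8.73 and 9.83 FPKM in white libraries (log2 difference -1.72, standard error 0.32, adjusted p = 0.184 from limma). TNNC1, its partner troponin C, was at 4.81, 3.92 and 5.75 FPKM in yellow libraries, against 10.3, 6.83 and 7.52 FPKM in white libraries (log2 difference -0.75, adjusted p = 0.295 from limma). Both were without overlap. They were 2 of the 4 striated muscle markers with at least 1 FPKM, and the other markers overlapped. The 4 had a median of -0.38, and 1 of them had a higher mean in yellow follicles. The summed muscle markers given above overlapped. Cytosolic chaperones had a median of 0.12 over 21 genes. Of these, 1 was higher and 2 lower at an unadjusted p of at most 0.05, beside 10.2% and 6.69% of all genes. The lower ones were the small heat shock protein genes CRYAB and HSPB1. HSPB1 was at 31.7, 40.05 and 31.01 FPKM in yellow libraries, against 46.4, 46.7 and 44.4 FPKM in white libraries (log2 difference -0.43, adjusted p = 0.281 from limma), and at 14.2, 9.11 and 15.4 FPKM in yellow and 25.3, 18.2 and 28.4 FPKM in white libraries of 11 weeks, without overlap at either age. Of 24 antioxidant genes, 16 had a lower mean in yellow follicles, and 0 were higher and 5 lower at an unadjusted p of at most 0.05, beside 10.2% and 6.69% of all genes. Their median was -0.09, beside 0.09 over all genes, and was -0.14 without 7Y4. The list holds abundant genes, summing to 5007 to 5364 FPKM in yellow libraries, and was not matched by level. Of all genes of 100 to 500 FPKM, 63.9% had a lower mean in yellow follicles, with 3.83% higher and 12.9% lower at that p. Among the 5, SOD1, the copper-zinc superoxide dismutase, was at 71.1, 74.5 and 80.3 FPKM in yellow libraries, against 105, 81.6 and 86.4 FPKM in white libraries (log2 difference -0.26, adjusted p = 0.331 from limma). SELENOP, a selenium carrier, was at 0.004898, 5.21 and 0.000239 FPKM in yellow libraries, against 13.1, 4.99 and 5.996 FPKM in white libraries, and overlapped because 7Y3 was within the white range. At 11 weeks every library of SELENOP had at most 0.278 FPKM.

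The remaining lists are given by their medians, beside 0.09 over all genes. Their counts of genes higher and lower at an unadjusted p of at most 0.05 stand beside 10.2% and 6.69% of all genes. The unfolded protein response had a median of 0.10 over 18 genes with 2 higher and 1 lower at an unadjusted p of at most 0.05, the ATF4 amino acid response 0.09 over 16 with 1 and 1, immediate early genes 0.06 over 16 with 4 and 2, and the glucocorticoid response 0.02 over 8 with 1 and 1. Hypoxia response genes had 0.24 over 18 with 4 and 1, with 16 of 18 higher in yellow follicles in their mean and a median of 0.13 with median-of-ratios scaling. The extremes of this list were EPAS1, a hypoxia-inducible factor, at 2.82, 1.19 and 3.76 FPKM in yellow libraries, against 0.553, 1.25 and 1.01 FPKM in white libraries, and DDIT4, an inhibitor of mTOR complex 1, at 98.1, 59.3 and 66.4 FPKM in yellow libraries, against 111, 134 and 132 FPKM in white libraries. EPAS1 overlapped through 7Y3, while DDIT4 did not overlap (log2 difference -0.78, adjusted p = 0.258 from limma). Calcium handling genes had a median of 0.11 over 19 with 3 higher and 0 lower, the signalling list of phosphoinositides, G proteins and cAMP 0.14 over 19 with 3 and 0, and ubiquitin ligases and deubiquitinases 0.27 over 12 with 1 and 1, which was 0.15 without 7W1. Fatty acid oxidation and ketone body synthesis had 0.09 over 17 with 2 and 1, and chemokines and cytokines 0.05 over 8 with 0 and 1. Of the 13 genes encoded by mitochondrial DNA, 11 had a lower mean in yellow follicles with a median of -0.23, but 0 reached an unadjusted p of 0.05 in either direction, and the median was -0.11 without 7Y4 and without 7W3. The melanosome list had a median of -0.32 over 19 genes with 4 higher and 8 lower, and the part of the summed melanocyte markers given above in these values was not tested. Its median was -0.19 without 7Y4 and near 0 without 7W1. With another scaling of the libraries the median changed sign in 10 of the 32 function and marker lists, and in none of the interferon, clock, Hippo or fatty acid synthesis lists.

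At 11 weeks, in libraries that the 7-week comparison did not use, 8 of the 49 genes with higher levels were separated in the same direction, or 16.3%, beside 1.35% of all 14806 genes tested at that age. Of the 74 genes with lower levels 14 were separated in the same direction, or 18.9%, beside 0.696%. In the opposite direction there were 0 and 3 genes. The set separated at 7 weeks changes with the setting. With the Dominant white genotype in the model, the counts in the same direction were 11 of 53 higher and 10 of 67 lower genes. With a pseudocount of 1 they were 5 of 16 and 11 of 45. The 8 were COMTD1, ENSGALG00000007803, NANS, ENSGALG00000004231, MFSD12, CNTFR, POMC and ENSGALG00000054408. Among the 14 were the melanosome genes TYRP1, PMEL, MLANA and SLC24A5, together with HPGDS, AGBL1, CRYAB, TEKT5, a tektin of cilia and flagella, and TMEM121, the others being without a symbol. COMTD1, a predicted methyltransferase, was at 12.97, 16.7 and 12.3 FPKM in yellow libraries, against 11.3, 8.79 and 3.01 FPKM in white libraries, and at 12.7, 12.4 and 10.6 FPKM in yellow and 7.99, 2.61 and 6.46 FPKM in white libraries of 11 weeks. Whether birds were plucked at both ages is not settled by the sources used here, so the ages may not be independent. The difference between the colour differences at 11 and 7 weeks, fitted on all 12 libraries, passed an adjusted p of 0.05 for 0 of 14553 genes (973 at an unadjusted p of at most 0.05, smallest adjusted p 0.476 from limma).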

How the data were processed

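RNA of nape feather follicles was sequenced from yellow and white chickens, and the authors deposited a table of FPKM per gene and library. The submitters' processing notes name TopHat2, Bowtie2 2.2.3 and HTSeq 0.6.0, with the GRCg6a genome, and the program that gave FPKM is not given in the sources used here. FPKM is not a count, and the depth behind each value cannot be read from the table. The read totals that the study gives were not used here.

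Values were tested as log2(FPKM + 0.1) with limma 3.58.1 in R 4.3.3 (a linear model of colour in the 6 libraries of 7 weeks, moderated with a trend on level) over 13895 genes with a mean of at least 0.1 FPKM, with Benjamini-Hochberg adjustment. Results are given for genes with a mean of at least 1 FPKM. A call required an adjusted p of at most 0.05 and a log2 difference of at least 1. The p-values measure the spread between these libraries. Genes were named if called, if among the 12 of lowest p in each direction with a symbol and separated groups, if among the 12 largest separated differences in each direction at 20 FPKM or more, or if on a gene list. Others are marked as chosen after their values were seen, or are given as neighbours of called or separated genes, for their high level, or as genes separated at both ages. STMN4 and COMTD1, which are among these, met none of the naming rules. The genes and lists were chosen with earlier results of these data known. Some lists, among them those of Hippo signalling, cornification and ubiquitin ligases, hold genes that the study reports as differing between the colours. Setting their counts and medians beside all genes is therefore a description and not an independent test. Alternatives were other pseudocounts, filters, scalings and spreads, the replicate number as a block, the Dominant white genotype as a covariate, and each library left out. The fit was tested on simulated data with independent normal errors for each gene and library. Those data held no shift shared by a whole library, so they do not cover the shift of 7Y1 and 7Y4. Sequences are not used here, and a few genes of the lists are not reported here.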

Additional observations from a re-analysis of the deposited data

Results flagged for a closer look

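SS2 differed between the ages. Its log2 difference, yellow minus white, was -1.621 at 7 weeks, with 0.462, 1.07 and 0.765 FPKM in yellow libraries and 2.40, 2.64 and 2.32 FPKM in white libraries. At 11 weeks it was 0.9785, with 1.91, 1.54 and 1.16 FPKM in yellow and 0.392, 0.826 and 1.09 FPKM in white libraries. The groups did not overlap at either age and lay in opposite order. The difference between the ages had an unadjusted p of 0.000294 and an adjusted p of 0.476 in limma, so it did not pass after adjustment over 14553 genes.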

How the results depend on the processing

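The 3 calls became 7 with median-of-ratios scaling, 8 with quantile normalization, 0 with the spread shared by 12 libraries and 3 to 11 with a library left out (7 without 7Y1, 11 without 7Y3, 10 without 7W2). The 1728 genes at an unadjusted p of at most 0.05, 60.3% of them higher in yellow follicles, became 835 to 3332 with a library left out (3332 without 7Y3, 861 without 7Y1, 1028 without 7Y4, 835 without 7W1, 918 without 7W3). The higher share was 42.6% with median-of-ratios scaling, 73.2% with equal totals, 70.8% with the shared spread, 44.3% with the replicate block, 46.0% without 7Y1, 74.9% without 7Y3, 38.7% without 7Y4 and 46.7% without 7W1. With the Dominant white genotype as a covariate 1213 genes had an unadjusted p of at most 0.05, 58.8% of them higher. The 123 separated genes became 61 with a pseudocount of 1 and 126 to 416 with a library left out (416 without 7Y3, 313 without 7W2). Leaving out a library loosens the rule, since fewer libraries must lie apart. The share of the separated genes with higher levels was 39.8%, and was 74.8% without 7Y3, 57.2% without 7W2 and 26.2% with a pseudocount of 1. It was 24.2% with median-of-ratios scaling and 23.3% with quantile normalization. Of the 123 genes, 22 were separated at 11 weeks in the same direction, beside 16 of 61 with a pseudocount of 1. With a library left out the count was 19 to 28, with 26 of 416 without 7Y3 and 28 of 313 without 7W2. The majority direction at an unadjusted p thus turned under several alternatives, and the cause was not tested.

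With the replicate number as a block, 18 genes were called, 1 higher and 17 lower, and 1099 had an unadjusted p of at most 0.05, 487 higher and 612 lower. The libraries share only a number: deviations correlated at -0.0219 for 7Y1 with 7W1 and at 0.257 for 7Y3 with 7W3, across 10257 genes, which are not independent.

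Of 2268 values of 126 named genes under 18 alternatives, 2239 kept their side of the threshold, 20 passed it and 9 lost it. Most of the 2239 are of genes that were not called and stayed so. Only the 3 called genes could lose the threshold, so all 9 losses were theirs, most of them of ENSGALG00000030720. Of 576 list medians, 27 moved by more than the spread between libraries.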
